A study of Mus musculus with 9 samples.

Results

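Cytotoxic lymphocytes kill through granules, and 9 genes of that machinery were followed here in CD4 T cells: Nkg7, Gzmb, Prf1, Fasl, Gzma, Gzmc, Gzmk, Gzmm and Klrd1. They were chosen by name from the 45808 genes of the count table, and all 9 have a row. Of them, 4 (Gzmb, Nkg7, Prf1 and Fasl) passed the filter on low counts and were tested; the other 5 are described by their counts alone. The cells were ICOS+ CD4 T cells sorted by flow cytometry from MC38 tumours of C57BL/6J mice, 12 days after tumour cells were injected. MC38 is a mouse colon adenocarcinoma line, and ICOS is a costimulatory receptor of activated T cells. All groups share strain, tumour and day. They are mice given an antibody against CTLA-4, mice given an antibody against PD-1, and control mice, with 3 mice and 3 libraries each. What the control mice received, the age of the mice, the antibody clones and doses, and the number of sorted cells were not stated in the labels used. The study asks whether blocking these 2 inhibitory receptors acts through different cells, and the libraries allow each antibody to be compared with controls and with the other.

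A killer cell stores perforin and granzymes in lysosome-like granules and releases them at the contact with a target. Perforin, encoded by Prf1, opens pores through which granzymes, a family of serine proteases, reach the target's cytosol and trigger death. A separate route uses Fas ligand, encoded by Fasl, which engages the death receptor Fas. CD8 T cells and NK cells are the usual carriers, but activated CD4 T cells, regulatory T cells among them, can also make granzyme B. In bulk RNA, fewer cells that use a gene and less RNA per cell cannot be told apart.

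The upstream sequences of the 4 tested genes are shown because only these genes carried enough counts to compare the groups. Each is the 250 bases before the RefSeq transcription start, build GRCm38.p6, written 5′ to 3′ on the gene's own strand. The windows are chr7:43436888-43437137 for Nkg7 and chr10:61297586-61297835 for Prf1, both on the plus strand, and chr14:56262335-56262584 for Gzmb and chr1:161788496-161788745 for Fasl, both on the minus strand. Capitals mark matches, on either strand, to ACCACA (bound by RUNX factors), GGTGTGA (T-box factors), TGANTCA (AP-1), ACGTCA (the cAMP response element's shared part) or GGAAAA (NFAT).
Nkg7: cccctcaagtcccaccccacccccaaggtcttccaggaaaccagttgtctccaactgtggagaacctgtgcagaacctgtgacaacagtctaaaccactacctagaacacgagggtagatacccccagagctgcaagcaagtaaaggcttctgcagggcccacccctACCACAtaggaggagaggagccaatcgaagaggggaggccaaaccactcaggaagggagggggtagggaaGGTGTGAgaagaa
Gzmb: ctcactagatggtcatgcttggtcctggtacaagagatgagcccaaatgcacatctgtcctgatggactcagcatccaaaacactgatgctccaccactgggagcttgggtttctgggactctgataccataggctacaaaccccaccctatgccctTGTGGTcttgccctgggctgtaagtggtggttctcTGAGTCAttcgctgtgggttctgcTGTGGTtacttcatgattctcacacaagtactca
Prf1: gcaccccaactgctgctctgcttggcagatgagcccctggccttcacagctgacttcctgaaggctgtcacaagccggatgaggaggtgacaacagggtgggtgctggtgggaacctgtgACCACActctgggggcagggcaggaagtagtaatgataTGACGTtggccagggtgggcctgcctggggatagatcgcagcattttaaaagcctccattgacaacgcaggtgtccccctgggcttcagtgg
Fasl: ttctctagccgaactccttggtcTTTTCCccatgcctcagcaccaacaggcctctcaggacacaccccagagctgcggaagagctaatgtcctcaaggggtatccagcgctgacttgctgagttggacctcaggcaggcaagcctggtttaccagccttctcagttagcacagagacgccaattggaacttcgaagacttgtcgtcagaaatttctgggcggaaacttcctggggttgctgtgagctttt
The RUNX letters stood in 6 of the 8 members with a RefSeq window (Nkg7, Gzmb, Prf1, Gzma, Gzmc and Gzmm), and in 14% of 32851 mouse promoter windows of the same length. The T-box letters stood in Nkg7 and Gzmk, and in a further window of Gzmm, and in 3.33% of all windows. In Nkg7 they begin 13 bases before the RefSeq start, and the RUNX letters begin 83 bases before it. The GENCODE annotation starts Nkg7 at 43437073, inside this window, so by GENCODE the T-box letters lie within the gene and the RUNX letters before it. The annotations also differ for Gzmb, whose GENCODE start at 56262260 lies outside its window and not next to it. For Prf1 the GENCODE start at 61297833 lies inside its window. Gzmb held 2 RUNX matches and 1 AP-1 match, the AP-1 letters being present in 6.75% of all windows. Prf1 held ACGTCA, found in 6.47% of windows, and Fasl held GGAAAA, found in 20.4%. These are matches of letters, and binding was not measured. Klrd1 has no entry in the promoter table.

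Before the genes are compared, 1 library must be pointed out, which was kept in the main fit and in the group means. Gene counts summed to 25530333 to 41508589 per library, and 5 CPM (a count scaled to a library sum of 1000000 gene counts) was reached by 49.7% to 71.4% of the 7858 tested genes in 8 libraries but by 31.2% in anti-CTLA-4 replicate 2. Its 12 CD4 T cell markers did not move one way. Cd4 stood at 24.5 CPM, against 308 to 808 CPM in the others, and Cd3e at 0.59 CPM. Like these, Cd28 (564 CPM), Icos (507 CPM), Cd2 (23.7 CPM), Cd5 (0.731 CPM) and Trbc2 (0.45 CPM) were at their lowest of the 9 libraries, and Lat stood at 0.0844 CPM. But Cd3d (696 CPM), Cd3g (649 CPM) and Trac (632 CPM) were at their highest of the 9 libraries, and Trbc1 stood at 454 CPM. In the same library macrophage and monocyte markers summed to 6350 CPM, against 244 to 960 CPM in the others. Fibroblast markers summed to 2120 CPM there, against 42 to 427 CPM in the others, and neutrophil markers to 267 CPM, against at most 102 CPM. Its dendritic cell and B cell sums were within the range of the others. Libraries were also unlike each other. Over all 9 libraries, groups not kept apart, 77.9% of tested genes had fewer than 30 counts in some library and more than 1000 in another, and so did 7 of the 9 members (77.8%). The highest Pearson correlation between any 2 libraries, of the same group or not, was 0.418. It was taken on log2(count + 1) across the tested genes, which are not independent replicates.

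Gzmb, the gene of granzyme B, the protease that cleaves caspases, was the only member above 5 CPM in every library. It lies on chromosome 14 (56258838 to 56262260, minus strand). Control replicates 1, 2 and 3 read 318, 736 and 1160 CPM, the anti-CTLA-4 libraries 742, 153 and 405 CPM, and the anti-PD-1 libraries 1530, 1050 and 1770 CPM. The anti-PD-1 libraries were all above the anti-CTLA-4 libraries, while the controls overlapped both. The group means were 1450 ± 369 CPM under anti-PD-1, 739 ± 423 CPM in control mice and 433 ± 295 CPM under anti-CTLA-4 (SD, n = 3). Neighbours in this order overlapped in CPM. The fitted log2 difference between anti-PD-1 and anti-CTLA-4 was 1.52 (SE 0.774, Benjamini-Hochberg adjusted p = 0.355 from the edgeR quasi-likelihood fit). Against controls it was 1.18 (SE 0.767, adjusted p = 1) for anti-PD-1 and -0.34 (SE 0.758, adjusted p = 1) for anti-CTLA-4, none of them past the threshold of 0.05. The fit scales libraries by TMM factors, and on that scale the anti-CTLA-4 libraries stood at 660, 376 and 384 CPM and those of anti-PD-1 at 1320, 1260 and 1500 CPM, also without overlap. The controls stood at 270, 584 and 948 CPM on that scale, where they overlapped the anti-CTLA-4 libraries but not those of anti-PD-1. For anti-PD-1 against controls the lowest adjusted p among the alternative fits was 0.0671, with limma voom. With RLE factors the difference between the antibodies was 0.0346, and with DESeq2 0.0347, the median of all genes there moving from 0.049 to -0.448 with RLE factors. The sign for anti-CTLA-4 against controls was positive with RLE factors and without Control replicate 3.

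Nkg7 encodes a membrane protein of cytotoxic granules that takes part in their release (chromosome 7, 43437073 to 43438249, plus strand). It was read in 5 libraries and near 0 in the other 4. The control libraries held 0.0482, 63.5 and 20.0 CPM, the anti-PD-1 libraries 253, 565 and 138 CPM, and the anti-CTLA-4 libraries 4, 5 and 7 counts, or 0.131, 0.141 and 0.214 CPM. Every anti-PD-1 library was above every control and every anti-CTLA-4 library, and 1 control was as low as the anti-CTLA-4 libraries. The anti-CTLA-4 counts amounted to 0.0123% to 0.0215% of the Nkg7 counts summed over the other 8 libraries.

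Nkg7 was higher with anti-PD-1 than with anti-CTLA-4 (log2 difference 10.57, SE 2.77, adjusted p = 0.0236, edgeR quasi-likelihood fit). With edgeR it was the only member past the threshold in any comparison. It ranked as number 44 of 7858 genes by p in that comparison and was the only gene called higher, a share of 0.0127%, while 0.827% were called in either direction. That it stood alone depended on the fit: DESeq2 called 488 genes higher, and edgeR without anti-CTLA-4 replicate 2 called 6 higher and 0 lower. Voom and library totals alone each called 1 gene higher, which was not Nkg7. The ratio of CPM means was 1970, resting on those few anti-CTLA-4 counts, and 1210 without anti-PD-1 replicate 2. The call was also made by DESeq2 (adjusted p = 0.000136), and was lost with RLE factors (0.16), library totals alone (0.0964), voom (0.299), the replicate block (0.308) and 0.1% of the other libraries' counts taken off (0.0779). Leaving out anti-CTLA-4 replicate 1 or 3 raised the adjusted p to 0.0666 or 0.0571, leaving out anti-PD-1 replicate 1 or 2 raised it to 0.0801 or 0.359, and leaving out anti-CTLA-4 replicate 2 lowered it to 0.00101. Against controls, Nkg7 averaged 319 ± 221 CPM under anti-PD-1 and 27.8 ± 32.4 CPM in control mice (SD, n = 3; adjusted p = 0.839, edgeR), and with anti-CTLA-4 0.162 ± 0.0455 CPM (adjusted p = 0.315, edgeR).

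Prf1, the perforin gene, lies on chromosome 10 (61297833 to 61304680, plus strand). It reached 28.5 CPM in Control replicate 1 and 187 and 168 CPM in anti-PD-1 replicates 2 and 3. In anti-PD-1 replicate 1, the other 2 controls and all anti-CTLA-4 libraries it had 1 to 8 counts, at most 0.224 CPM. So the anti-PD-1 libraries were not uniform, and the groups overlapped in all 3 comparisons. No comparison of Prf1 passed, the lowest adjusted p being 0.306 for anti-PD-1 against anti-CTLA-4 (edgeR), where DESeq2 gave 0.00328.

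Fasl, the gene of Fas ligand, lies on chromosome 1 (161780689 to 161788495, minus strand). It had 0 counts in all 3 anti-CTLA-4 libraries, where 3 counts, the limit set here for a count of 0, equal 0.0843 to 0.0985 CPM. That limit allows roughly for counting error only, and not for the spread between mice. The anti-PD-1 libraries held 86.6, 55.6 and 3.56 CPM, and the controls 57.4, 0 and 0.0838 CPM. The anti-PD-1 libraries averaged 48.6 ± 42.0 CPM (SD, n = 3) and did not overlap the anti-CTLA-4 libraries. With 3 counts put in place of each 0, the anti-CTLA-4 mean was 531-fold lower, and 323-fold lower without anti-PD-1 replicate 1. The adjusted p was 0.308 (edgeR), and against controls it was 0.432 for anti-CTLA-4 and 1 for anti-PD-1.

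The remaining granzymes were each read in 1 or 2 libraries, or in none. Gzmm, the gene of granzyme M, stood at 40.0 and 12.8 CPM in anti-PD-1 replicates 1 and 2 and had 0 counts in the other 7 libraries. Gzma, the gene of the tryptase granzyme A, had 1029 counts (28.8 CPM) in Control replicate 3 and at most 2 counts elsewhere. Gzmc had 3147 counts (96.3 CPM) in anti-CTLA-4 replicate 3 and at most 8 counts elsewhere. Gzmk, the gene of granzyme K, had 0 counts in all 9 libraries. None of these 4 had enough libraries with counts to be tested, and none had 5 CPM or more in all 3 libraries of a group.

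Granzyme genes sit in clusters, and their neighbours were read differently. Gzmc lies 24.2 kb from Gzmb on chromosome 14, in a cluster with Gzmd, Gzme, Gzmf, Gzmg and Gzmn. Gzmd was read in the same library as Gzmc, at 2353 counts (72.0 CPM) in anti-CTLA-4 replicate 3, and at no more than 3 counts in any other. Gzme, Gzmf, Gzmg and Gzmn had 0 counts throughout. Gzma and Gzmk lie 70.6 kb apart on chromosome 13, and only the first was read in any library. Shared sequence between these genes was checked: none of the 76-base stretches of the 9 members occurs in a transcript of another gene in GENCODE M21, against 5.4% for Gzmd, 4.4% for Gzme, 9.36% for Gzmf, 6.47% for Gzmg and 1.32% for Gzmn. No exon of a member overlaps an exon of another gene.

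Klrd1 encodes CD94, which pairs with NKG2 chains to form a receptor for the MHC molecule Qa-1 on NK cells and some T cells (chromosome 6, 129591782 to 129598775). It had 1179 counts (28.4 CPM) in Control replicate 1 and 0 in the other 8 libraries. The partner gene Klrc1 stood at 0.0482 CPM in that library. It was read at 77.6 CPM in anti-CTLA-4 replicate 3, 20.8 CPM in anti-PD-1 replicate 3, 6.65 CPM in Control replicate 3 and 4.38 CPM in anti-PD-1 replicate 2, so the 2 genes were not read in the same libraries.

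**Figure D1:**
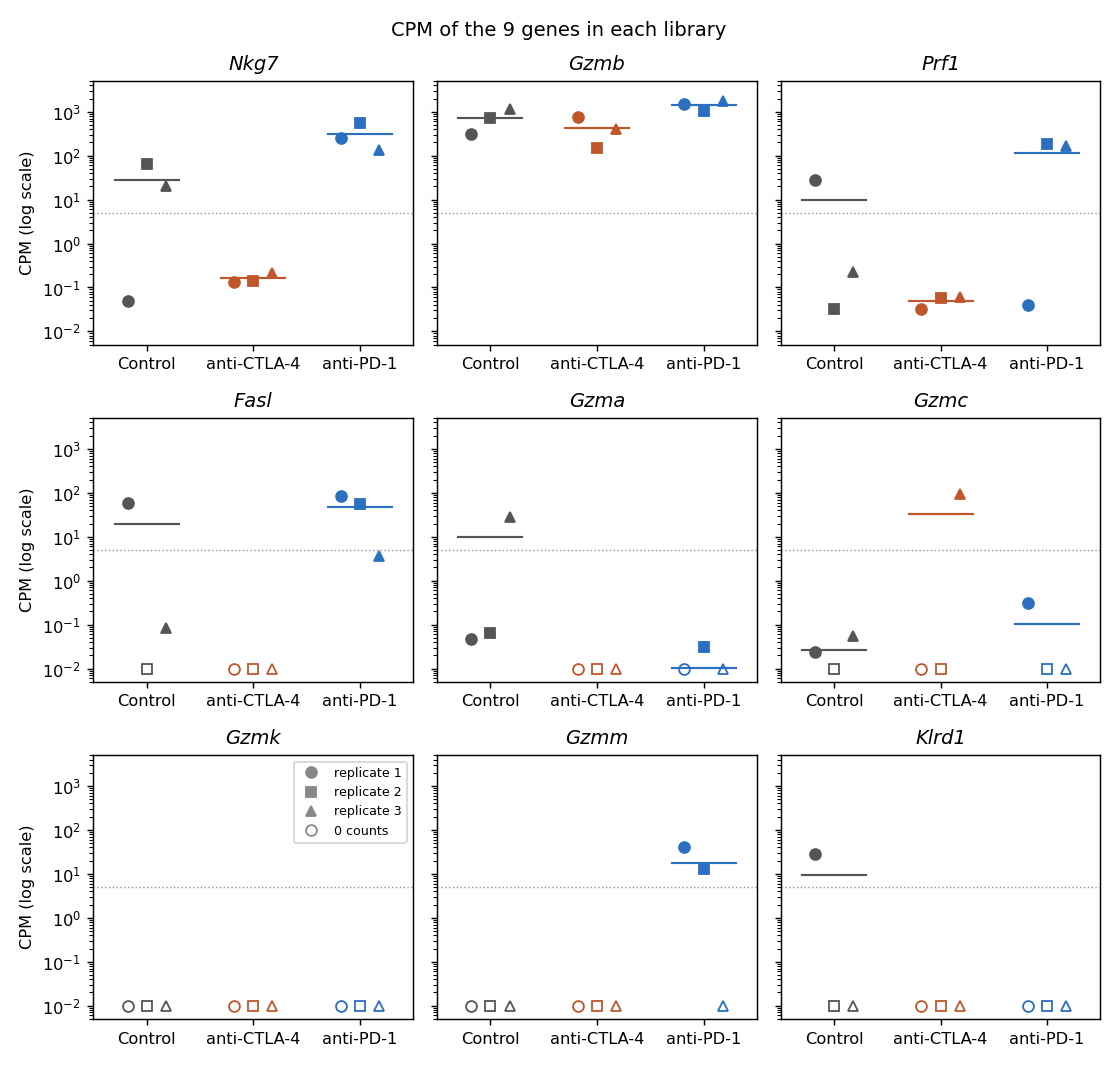
CPM of each of the 9 genes (log axis) in control, anti-CTLA-4 and anti-PD-1 libraries, 1 symbol per mouse, with the group mean as a bar, 0 counts as open symbols drawn at 0.01 and 5 CPM as a dotted line. Gzmb is above 5 CPM in all 9 libraries, and Nkg7 spans 138 to 565 CPM among anti-PD-1 mice and stays at 0.214 CPM or less among anti-CTLA-4 mice.

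Levels of different genes can be set side by side only per length of their exons. As mean CPM per kb of exons with anti-PD-1, Gzmb stood highest at 1010, then Nkg7 at 349, Prf1 at 45.8, Fasl at 25.1 and Gzmm at 12.0. In controls Gzmb stood at 515 and Nkg7 at 30.5 CPM per kb, and Fasl, Gzma, Klrd1 and Prf1 at 3.70 to 9.90, each from 1 library. Without that library the control means were 0.0419 CPM for Fasl, 0.0563 for Gzma, 0 for Klrd1 and 0.128 for Prf1. With anti-CTLA-4 Gzmb stood at 302 CPM per kb, Gzmc at 35.9 from 1 library, and all others at 0.177 or less.

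Summed over the 9 genes, the anti-PD-1 libraries held 1909, 1866 and 2079 CPM, the controls 433, 799 and 1213 CPM, and the anti-CTLA-4 libraries 742, 153 and 502 CPM. Every anti-PD-1 sum was above every other sum. Gzmb made up most of it, at 80.1%, 56.0% and 85.1% of the anti-PD-1 sums, 73.6% to 96.0% of the control sums and 80.8% to 100% of the anti-CTLA-4 sums. With Gzmb taken out, the other 8 genes together gave 380, 821 and 309 CPM under anti-PD-1, 114, 63.6 and 49.1 CPM in control mice, and 0.164, 0.197 and 96.6 CPM under anti-CTLA-4. The last of these was Gzmc almost alone.

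**Figure D2:**
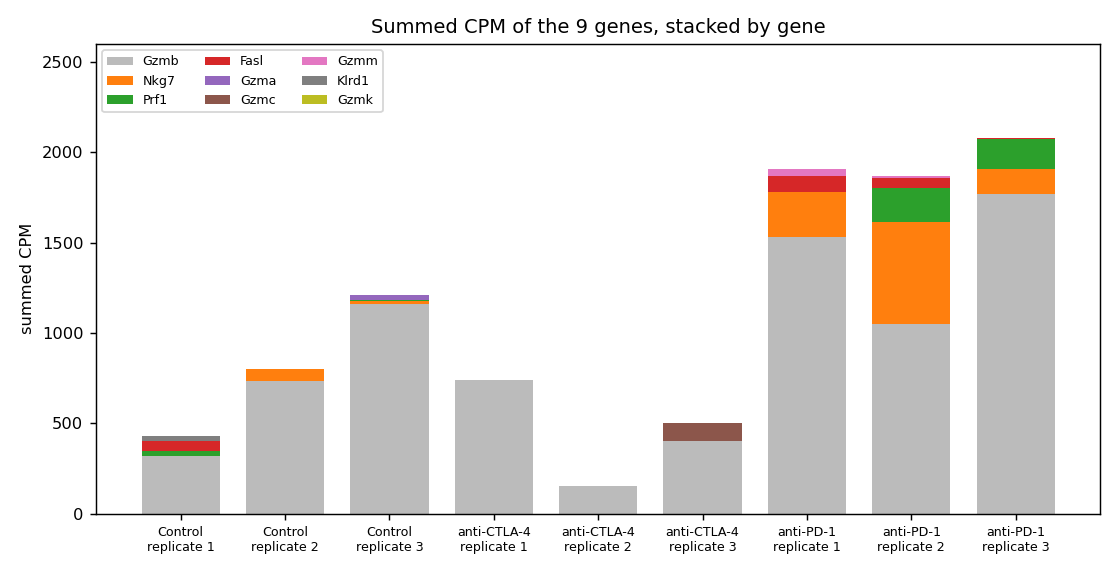
Summed CPM of the 9 genes in each of the 9 libraries, stacked by gene. The 3 anti-PD-1 bars reach 1866 to 2079 CPM and carry Nkg7, and 2 of the 3 anti-CTLA-4 bars hold almost nothing but Gzmb.

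Members other than Gzmb were read in different combinations in each mouse. Control replicate 1 held Prf1, Fasl and Klrd1 at 5 CPM or more but Nkg7 at 2 counts, while Control replicates 2 and 3 held Nkg7 without Prf1 or Fasl, and Control replicate 3 also Gzma. Anti-PD-1 replicate 2 held Nkg7, Prf1, Fasl and Gzmm, replicate 1 held Nkg7, Fasl and Gzmm, and replicate 3 held Nkg7 and Prf1. Of the 5 libraries with Nkg7, 2 also held Prf1 at 5 CPM or more, and 2 held Fasl. Counting Gzmb, the members at 5 CPM or more numbered 4, 2 and 3 in controls, 1, 1 and 2 with anti-CTLA-4 and 4, 5 and 3 with anti-PD-1. Detection of all genes moved with this in part: tested genes at 5 CPM or more made up 69.8% to 71.4% in controls, 63.0%, 31.2% and 60.1% with anti-CTLA-4, and 63.8%, 49.7% and 67.7% with anti-PD-1. Its part in the member counts was not tested. Anti-PD-1 replicate 2 held the most members of any library with the second lowest share of detected genes.

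**Figure D3:**
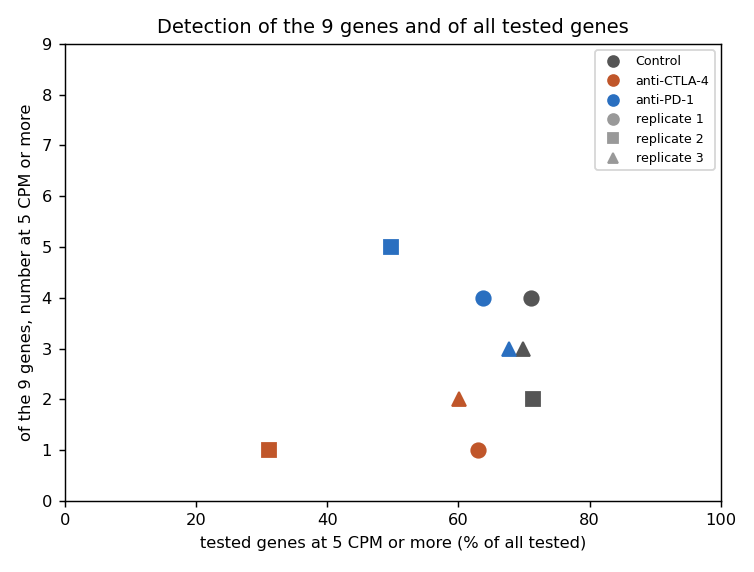
Number of the 9 genes at 5 CPM or more (vertical axis) against the percentage of all 7858 tested genes at 5 CPM or more (horizontal axis), 1 symbol per library. Anti-PD-1 replicate 2 has 5 members at 49.7%, and the 3 anti-CTLA-4 libraries have 1 or 2 members at 31.2% to 63.0%.

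Over the 3 comparisons, which share libraries in pairs, the members' calls were few, as were calls over all genes. Of the 9 members, 5 were not tested, and the counts here are of the other 4. Anti-PD-1 against controls gave 0 of 4 past the threshold with edgeR, 0 with an unadjusted p under 0.05, and 0 with DESeq2 or limma voom. There edgeR called 0.0764% of all tested genes, 0.0382% higher and 0.0382% lower, and 6.01% had an unadjusted p under 0.05. DESeq2 called 7.55% of the genes to which it gave an adjusted p in that comparison, 10% for anti-CTLA-4 against controls and 15.2% between the antibodies, and voom 0.0127%, 0% and 0.0255%. Fasl had no adjusted p from DESeq2. Anti-CTLA-4 against controls gave 0 of 4 with edgeR, DESeq2 and voom, where edgeR called 0.369% of all tested genes, all of them higher, and 0% lower. There 2 members had an unadjusted p under 0.05 (Nkg7 and Fasl), as had 11.3% of all genes. Between anti-PD-1 and anti-CTLA-4, the 4 tested members all had an unadjusted edgeR p under 0.05, with positive differences, against 14.1% of all genes. Of these, edgeR called Nkg7, DESeq2 called Nkg7 and Prf1, and voom called neither. Of the 65 genes called there, 64 (0.814% of all tested) were lower under anti-PD-1, and none of those was a member. Without anti-CTLA-4 replicate 2, edgeR called 0 genes lower. A positive fitted difference was found for 50.9% of all tested genes in that comparison, and for 50.2% with anti-CTLA-4 against controls, where the 4 tested members were all negative, Gzmb turning positive with RLE factors. Between the antibodies Nkg7, Gzmb and Fasl were higher with anti-PD-1 without overlap of the groups, 3 of the 4 tested members, as were 6.95% of all tested genes, and no tested member was lower, against 2.81% of all tested genes. Against controls only Nkg7 was higher with anti-PD-1 without overlap in CPM, as were 3.45% of all tested genes. On the TMM scale Gzmb was also above every control with anti-PD-1, and the share over all genes was not counted on that scale. No tested member was lower than in controls without overlap with either antibody, against 7.33% of all tested genes for anti-PD-1 and 10.4% for anti-CTLA-4. The untested Gzma was, but 2 of the controls had only 2 counts each. No tested member was higher with anti-CTLA-4 than in controls without overlap, against 1.57% of all tested genes. Nkg7, Prf1 and Fasl passed the filter through the libraries where they were high, and with control and anti-CTLA-4 libraries alone only Gzmb passed it, so these counts describe the tested members and carry no test of the set.

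Among the pathway genes around the members, 1 gene (Ctsb) passed with edgeR in any comparison, DESeq2 called 5 others (Tnf, Cst3, Ccl3, Ccl4 and Il15ra), and voom called 0. Of 16 tested genes of granule trafficking and release, 0 passed in any of the 3 comparisons with edgeR, DESeq2 or voom. Ap3b1, an adaptor subunit that sorts cargo to lysosome-related organelles, stood at 260 ± 118 CPM in control mice, 454 ± 105 CPM under anti-CTLA-4 and 640 ± 238 CPM under anti-PD-1. Rab7, a GTPase of late endosomes, stood at 454 ± 143, 341 ± 121 and 550 ± 303 CPM for the groups in that order. Stxbp2, which helps granules fuse with the membrane, stood at 360 ± 171, 155 ± 147 and 337 ± 145 CPM. With anti-PD-1 against controls 62.5% of the tested genes of this list had a positive fitted difference, against 52.4% of all tested genes. The list's median log2 difference was 0.381, against 0.0741 over all tested genes, and the edgeR counts at an unadjusted p under 0.05 were 0 in all 3 comparisons.

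Granule contents other than the members counted 11 genes, all tested, with median log2 differences of 0.746 for anti-PD-1 and -0.0684 for anti-CTLA-4 against controls, against 0.0741 and 0.00766 over all tested genes. Srgn, the gene of serglycin, the proteoglycan that packs granzymes in the granule, stood at 1159 ± 143 CPM in control mice, 599.6 ± 305 CPM under anti-CTLA-4 and 1201 ± 518 CPM under anti-PD-1. Calr, a calcium-binding chaperone, stood at 544 ± 165, 356 ± 163 and 329.5 ± 89.8 CPM, and Ctsc, the protease that activates granzymes, at 223 ± 94.1, 360 ± 227 and 331 ± 347 CPM. Ctsb, the lysosomal protease cathepsin B, was the 1 gene of the list called, and neither DESeq2, which gave it no adjusted p, nor voom called it. It was higher with anti-CTLA-4 than in controls (log2 difference 3.87, adjusted p = 0.0389, edgeR), at 36.8, 1496 and 198 CPM in the mice given that antibody and 102, 142 and 86.7 CPM in control mice. Its high value was in anti-CTLA-4 replicate 2, the library with the macrophage markers, and without that library the adjusted p was 1 and the log2 difference 0.31. It was also lost without any single control, at adjusted p of 0.387 to 0.524, and without anti-PD-1 replicates 1 or 3, at 0.0979 and 0.0755.

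Among inhibitors of granule proteases, 0 of 5 tested genes passed in any comparison with edgeR. At an unadjusted p under 0.05 there were 0 for anti-PD-1 against controls, 2 for anti-CTLA-4 against controls and 1 between the antibodies, where the shares over all tested genes were 6.01%, 11.3% and 14.1%. DESeq2 called 1 gene, Cst3, in each comparison with anti-CTLA-4, lower under that antibody, in comparisons where it called 10% and 15.2% of its genes. Serpinb9, which blocks granzyme B in the cells that make it, stood at 73.9 ± 65.5 CPM in control mice, 248.5 ± 273 CPM under anti-CTLA-4 and 151 ± 65.7 CPM under anti-PD-1. It was highest in anti-CTLA-4 replicate 2, at 541 CPM, where Gzmb was lowest. Serpinb6b and Serpinb6a averaged 78.6 ± 44.5 and 50.5 ± 52.5 CPM in control mice and 60.46 ± 29.98 and 83.5 ± 51.7 CPM under anti-PD-1. With anti-CTLA-4 each was near 0 in 2 of the 3 libraries.

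Of 15 tested genes of death receptor signalling, 0 passed in any comparison with edgeR or voom, with 0, 1 and 1 at an unadjusted p under 0.05 for anti-PD-1 against controls, anti-CTLA-4 against controls and anti-PD-1 against anti-CTLA-4, against 6.01%, 11.3% and 14.1% of all tested genes. DESeq2 called Tnf lower under anti-PD-1 than in either other group, where it called 7.55% and 15.2% of its genes. Casp8, the caspase that Fas activates, stood at 316 ± 36.8 CPM in control mice, 146 ± 107 CPM under anti-CTLA-4 and 367 ± 74.4 CPM under anti-PD-1. Cflar, which restrains Casp8, stood at 333 ± 43.6, 213 ± 146 and 398 ± 171 CPM, and the tumour necrosis factor receptor gene Tnfrsf1b at 412 ± 213, 290 ± 148 and 311.5 ± 143 CPM. Fas, the receptor of Fas ligand, was highest in anti-CTLA-4 replicate 2, at 701 CPM, and at 167 CPM or less elsewhere; it is named after its values were seen.

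Transcription factors of the cytotoxic program gave 0 of 17 tested genes in any comparison with edgeR, DESeq2 or voom, with 0, 3 and 2 at an unadjusted p under 0.05 in the same order, against 6.01%, 11.3% and 14.1% of all tested genes. Bhlhe40 stood at 479 ± 55.5 CPM in control mice, 887 ± 377 CPM under anti-CTLA-4 and 325 ± 303 CPM under anti-PD-1. Runx1 stood at 574.5 ± 128, 434 ± 254 and 459 ± 263 CPM. Runx3, which promotes the cytotoxic fate in T cells, stood at 410.5 ± 172, 328 ± 170 and 380 ± 337 CPM, and was lowest, at 5.92 CPM, in anti-PD-1 replicate 2, the library with the most Nkg7 and Prf1. Eomes, a T-box factor of CD8 T cells and NK cells, had 0 counts in all 9 libraries.

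Receptors and adaptors shared with NK cells gave 0 of 7 tested genes in any comparison with edgeR, DESeq2 or voom and 0, 1 and 1 at an unadjusted p under 0.05 (6.01%, 11.3% and 14.1% of all tested genes), 13 of the 20 listed being too low to test. Klrg1, a receptor of terminally differentiated effector cells and some regulatory T cells, stood at 843 ± 237 CPM in control mice, 274 ± 276 CPM under anti-CTLA-4 and 1394 ± 402.4 CPM under anti-PD-1, with adjusted p of 1, 0.438 and 0.127 for anti-PD-1 against controls, anti-CTLA-4 against controls and anti-PD-1 against anti-CTLA-4 (edgeR). The adaptor genes Hcst and Tyrobp stood at 238 ± 85.8 and 40.6 ± 18.5 CPM in control mice, and Tyrobp reached 1874 CPM in anti-CTLA-4 replicate 2.

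Secreted effector products gave 0 of 7 tested genes in any comparison with edgeR or voom, with 0, 2 and 2 at an unadjusted p under 0.05, against 6.01%, 11.3% and 14.1% of all tested genes. DESeq2 called Ccl3 and Ccl4, both lower under anti-CTLA-4 than in either other group, in comparisons where it called 10% and 15.2% of its genes. Ccl4, a chemokine released with granules by effector cells, stood at 120 ± 65.1 CPM in control mice, 0.061 ± 0.0047 CPM under anti-CTLA-4 and 138.5 ± 88.1 CPM under anti-PD-1, with the lowest adjusted p of the list (0.0776 for anti-PD-1 against anti-CTLA-4, edgeR). Like Nkg7 it was near 0 in all 3 anti-CTLA-4 libraries, but it stood at 111 CPM in Control replicate 1, where Nkg7 had 2 counts. Ccl3, its close relative, stood at 64.4 ± 93.4, 0.0915 ± 0.0535 and 65.1 ± 19.5 CPM. Ccl5, by contrast, was read in every library, at 103 ± 55.8, 187.5 ± 116 and 218 ± 35.7 CPM.

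Cytokine receptors of effector T cells gave 0 of 10 tested genes with edgeR or voom, with 0, 1 and 1 at an unadjusted p under 0.05 (6.01%, 11.3% and 14.1% of all tested genes). DESeq2 called Il15ra lower under anti-CTLA-4 than in either other group, again beside 10% and 15.2% of its genes. Il2ra, the high-affinity interleukin-2 receptor chain, stood at 8166 ± 1950 CPM in control mice, 4275 ± 1875 CPM under anti-CTLA-4 and 6168 ± 771.9 CPM under anti-PD-1. Il2rg, the shared chain, stood at 1714 ± 262, 1412 ± 770 and 1981 ± 643.5 CPM, and Il7r at 1136 ± 336, 686 ± 383 and 958.5 ± 355 CPM in that order.

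The genes whose profiles lay nearest to Nkg7 over the 9 libraries were Dpy19l1, Spag7, Pot1b, Map2k1 and Gcc1. Nearness was the root mean square difference of log2(CPM + 1) after each gene was centred on its own mean. It was 0.977 to 1.34 for these 5, against a median of 4.08 over 7221 candidate genes. Dpy19l1 stood at 0.0482, 51.0 and 15.0 CPM in control mice, at 0.0843 CPM or less with anti-CTLA-4 and at 65.0 to 102 CPM under anti-PD-1. For all 5 genes, the lowest anti-PD-1 library was above the highest anti-CTLA-4 library, and Control replicate 1 was the lowest control, as for Nkg7. The genes were picked for likeness over these same libraries, so these shared features carry no separate support.

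The 5 nearest to Gzmb were Tigit, Crem, Rora, Icos and Serinc3, at 0.475 to 0.57, where the median over all candidates was 2.42. Tigit, an inhibitory receptor, was read at 4530 to 6350 CPM in control mice, 1170 to 4300 CPM under anti-CTLA-4 and 6390 to 8250 CPM under anti-PD-1. Icos, the receptor used for the sort, was read at 1850 to 2870, 507 to 1990 and 2550 to 2880 CPM. Each of the 5 was lowest in anti-CTLA-4 replicate 2, as was Gzmb, which their choice by likeness favours.

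**Figure D4:**
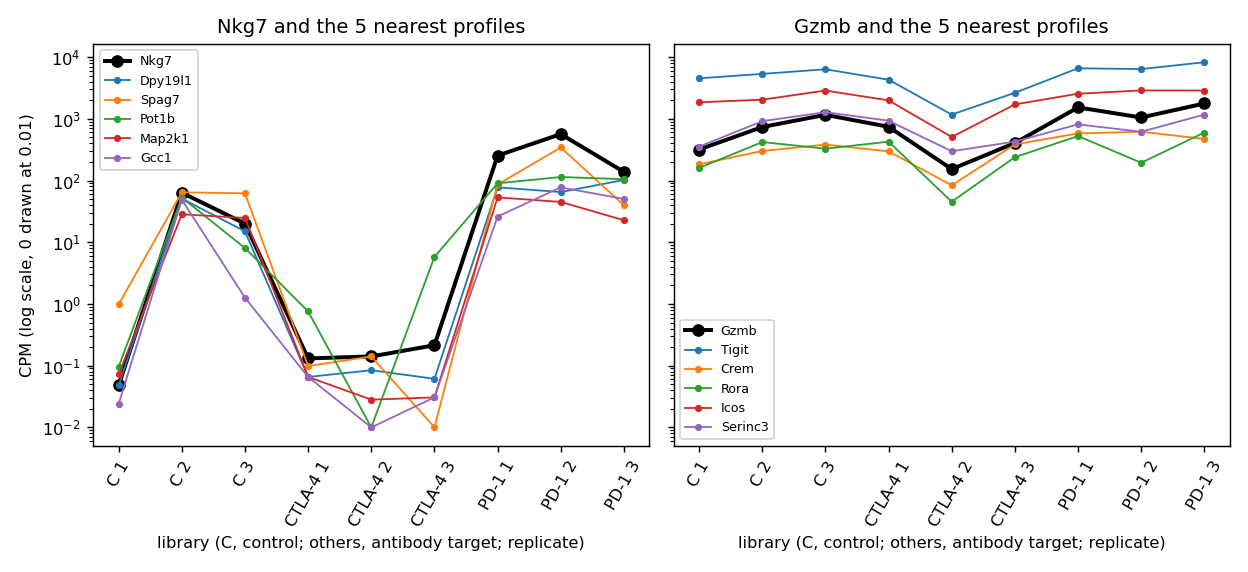
CPM (log axis) in the 9 libraries of Nkg7 and Gzmb, each with the 5 genes of nearest profile. Nkg7 and its neighbours stay below 6 CPM in each anti-CTLA-4 library and above 20 CPM in each anti-PD-1 library, while Gzmb and its neighbours are read in all 9 and dip in anti-CTLA-4 replicate 2.

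Markers of other cells that carry cytotoxic granules were low or patchy in these libraries. Of the CD8 T cell genes, Cd8a had 0 counts in every library, and Cd8b1 stood at 125 CPM in anti-PD-1 replicate 3 and at 0.118 CPM or less elsewhere. Nkg7 and Prf1 stood at 138 and 168 CPM in anti-PD-1 replicate 3, and at 565 and 187 CPM in anti-PD-1 replicate 2, where Cd8b1 had 0 counts. The part of CD8 T cells in these values was not tested. Of 11 NK cell markers, 8 had 0 counts in all libraries, Ncr1, Klrb1c and Eomes among them. The other 3, Klra4, Tyrobp and Fcer1g, brought the sum to 21.4 to 128 CPM in control mice, 97.9 to 1870 CPM under anti-CTLA-4 and 0.438 to 147 CPM under anti-PD-1. The highest sum, in anti-CTLA-4 replicate 2, was Tyrobp almost alone (1874 CPM), a gene also on the macrophage and monocyte list. Of the 7 gamma delta T cell markers in the table, 5 had 0 counts, and the sum was 65.4 CPM in Control replicate 1, where Prf1, Fasl and Klrd1 were read, and at most 0.952 CPM elsewhere; the part of such cells in those values was not tested. Of 9 mast cell markers, 7 had 0 counts, and the sum was 36.9 CPM in Control replicate 1, 41.6 CPM in anti-PD-1 replicate 3 and at most 0.0306 CPM elsewhere. CD4 T cell markers summed to 7180 to 10500 CPM in 8 libraries and to 3550 CPM in anti-CTLA-4 replicate 2. Regulatory T cell markers, Il2ra and Tigit among them, summed to 14000 to 23800 CPM in the same 8 libraries and to 6560 CPM in that replicate. Foxp3, the defining factor of those cells, was read in every library, at 898 to 3901 CPM. The part of regulatory T cells in the values of Gzmb and the other members was not tested.

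**Figure D5:**
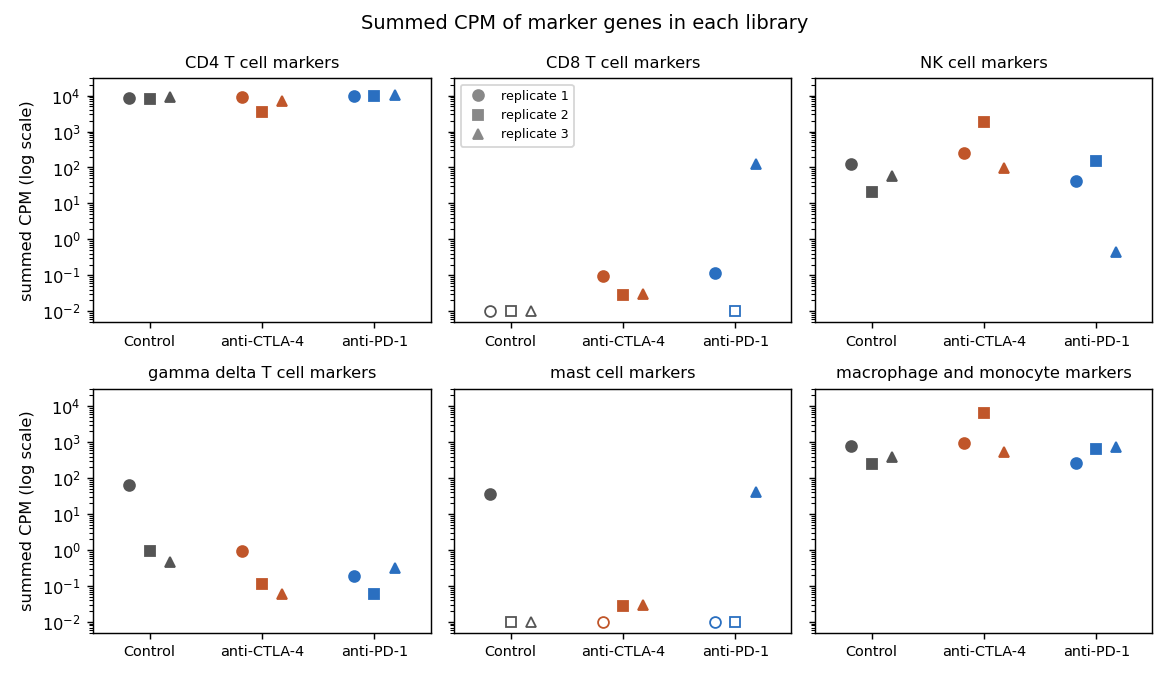
Summed CPM (log axis) of marker genes of 6 cell types in control, anti-CTLA-4 and anti-PD-1 libraries, 1 symbol per mouse, 0 drawn as open symbols at 0.01. CD8 T cell markers exceed 1 CPM only in anti-PD-1 replicate 3, and macrophage and monocyte markers peak at 6350 CPM in anti-CTLA-4 replicate 2.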

How the data were processed

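The authors deposited raw counts per gene symbol for 9 libraries, 1 per mouse, sequenced as 76-base pairs after amplification of bulk sorted-cell RNA with a kit made for single cells, per the labels' protocols. Per the submitters' processing notes the tools were TopHat2, HTSeq and DESeq2, on build GRCm38; the notes give no version, and no label states the annotation or strand setting. The 5 summary entries of HTSeq were left out, leaving 32.9% to 40.7% of each library's counts on genes. CPM is the count over the summed gene counts, with no further factor, and the labels mention no molecular identifiers.

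All genes were fitted with edgeR 4.0.16 (R 4.3.3; robust quasi-likelihood test, TMM factors of 0.407 to 1.26, filterByExpr with a minimum count of 10, group as the only term, all 9 libraries), with Benjamini-Hochberg adjustment over 7858 genes and a threshold of 0.05. Standard errors are the difference over the square root of F and approximate. The script was tested on simulated data, and its power to find changes at the spread of these libraries is not reported here. Alternatives used DESeq2 1.42.0, limma 3.58.1, other factors and filters, the replicate number as a block, and libraries left out. Gene coordinates and exon lengths come from GENCODE M21 (GRCm38), and promoters from RefSeq (GRCm38.p6).

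Members and lists were chosen with earlier results of these data known. Named beside the 9 members were the 3 most abundant genes of each pathway list, list genes past the threshold, and the 5 genes nearest in profile to Nkg7 and to Gzmb; Klrc1, Gzmd, Fas, Eomes, Cst3, Tnf, Il15ra and marker genes were named after their values were seen.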

Additional observations from a re-analysis of the deposited data

How the results depend on the processing

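Members past the threshold numbered 0 in every alternative run for anti-PD-1 against controls and for anti-CTLA-4 against controls, but 1 of the latter, with only the 2 groups compared, could fit Gzmb alone. Between anti-PD-1 and anti-CTLA-4 the number was 1 (Nkg7), and it was 0 with RLE factors, library totals only, limma voom, the replicate block, both libraries with the fewest genes left out (anti-CTLA-4 replicate 2 and anti-PD-1 replicate 2), or 0.1% of the other libraries' counts taken off. It was 2 with DESeq2 (Nkg7 and Prf1) and 0 to 1 with each replicate left out in turn. For Nkg7 9 of 19 other fits passed, with adjusted p of 0.000136 to 0.56; the cause was not tested. Every one of the 19 kept its direction. For Gzmb, not called, the difference between the antibodies was 0.0346 with RLE factors and 0.0347 with DESeq2, and that for anti-CTLA-4 against controls, changed sign to 1.33 with RLE factors and with DESeq2 and ranged from -0.748 to 0.0977 with each replicate left out, positive only without Control replicate 3. RLE factors moved the median log2 difference of all genes in that comparison from 0.00766 to 0.563. Ctsb passed in 3 of 19 other fits, DESeq2 giving no adjusted p. Same-numbered libraries did not deviate together (correlations of -0.0345 to 0.0182 across tested genes). With libraries this unlike each other, that cannot decide whether the numbers pair mice, and the labels do not state it. The replicate block lowered calls over all genes between the antibodies from 65 to 12. Calls over all genes moved widely with the tool: 6, 29 and 65 with edgeR and 421, 558 and 847 with DESeq2, in the order anti-PD-1 against controls, anti-CTLA-4 against controls, and anti-PD-1 against anti-CTLA-4. The limit of 3 counts set for a count of 0 equals 0.0723 to 0.118 CPM.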
